A study of Rattus norvegicus with 113 samples.

Results

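The comparison described here is that of cortex taken 6 months after traumatic brain injury (TBI) with cortex taken 6 months after sham surgery, in adult male Sprague-Dawley rats. Its arrays were chosen by their sample titles, which gave 4 TBI and 4 sham arrays, and the 4 naive cortex arrays of the same interval were fitted with them. These 12 arrays belong to a series of 113 samples. TBI rats received a parasagittal fluid percussion injury, in which a pulse of fluid deforms the brain, and which the labels call moderate and the methods severe. Sham rats went through the same surgery without the fluid pulse, and naive rats were neither anesthetized nor handled. The tissue was a small piece of cortex near the injury site, cut after the hippocampus had been removed, and each array carried RNA amplified from 1 rat with 1 dye.

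The array held 45598 probes, of which 21109 (46.3%) could be matched to a gene symbol, for 16581 genes. Of these, 24854 probes were tested, because all 4 TBI arrays or all 4 sham arrays were well above background, and they covered 11412 named genes. Between 57.5% and 59.7% of probes were above background on the TBI arrays, against 49.5% to 57.5% on the sham and 51.1% to 58.9% on the naive arrays. The 4 TBI arrays lay on another slide than the 8 sham and naive arrays, so slide and injury cannot be told apart. The TBI slide also held the 4 naive cortex arrays of 12 months, and differences against these are given where they bear on a result. Levels are log2 of the processed signal over the array's median signal, a difference is a difference of such levels, and a probe is called where the p of the limma fit, adjusted over all tested probes, was under 0.05.

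Some background helps to read the genes that follow. The choroid plexus is the epithelium in the brain's ventricles that secretes cerebrospinal fluid and exports carrier proteins into it, and the ependyma is the layer of ciliated cells that lines the ventricles, so neither belongs to the cortex itself. Genes of both were therefore kept apart from all others, as a choroid plexus list of 41 genes and a list of 85 ependymal and ciliary genes. Injured brain is known for reactive astrocytes and activated microglia, which make acute-phase proteins, complement components and chemokines.

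At 6 months 20 probes were called between TBI and sham cortex, which is 0.0805% of those tested, and all 20 were higher after TBI. Of these, 13 carried a symbol and 7 did not. Ventricular genes accounted for 4 of the called probes (Folr1, Calml4, Mfrp and Mlf1), and 9 called probes with a symbol lay outside the ventricular lists (Prc1, Daw1, Rgs22, Ppp1r36, Ribc1, Amn, Aff1, Cldn19 and Hdac1l). No probe was called lower by limma. At an unadjusted p under 0.05 there were 2453 probes, or 9.87%. At the thresholds of the study, a fold of at least 1.4 with an unadjusted p under 0.05, 829 probes (3.34%) were higher and 151 (0.608%) lower after TBI. Against naive cortex the split was nearly even at these thresholds, with 712 probes (2.86%) higher and 655 (2.63%) lower after TBI, and sham against naive cortex was tilted the other way, with 117 (0.509%) higher and 636 (2.77%) lower after sham surgery. With arrays scaled to their 75th percentile in place of the median, the counts for TBI against sham were 614 higher and 211 lower, and 1 of 11 called probes was lower. Over all tested probes the median difference was 0.029.

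**Figure D1:**
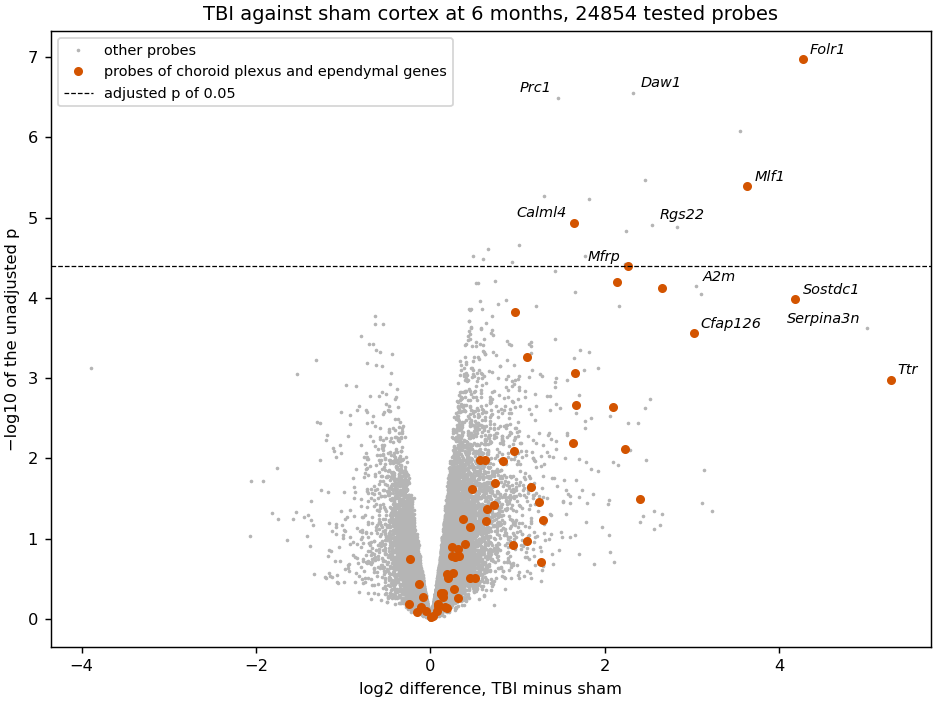
The log2 difference between TBI and sham cortex at 6 months (x axis) is plotted against -log10 of the unadjusted p (y axis) for the 24854 tested probes, with probes of the choroid plexus and ependymal lists in orange. The 20 probes above the dashed line, which marks an adjusted p of 0.05, all lie on the right, higher after TBI.

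The number of called probes rested on single arrays. It was 144 without TBI array 2, 5 without TBI array 3, 4 without TBI array 4, 8 without sham array 2, 10 without sham array 3 and 13 without sham array 4. Many of these probes were dim in sham cortex, and 10 of the 20, or 5 of the 13 with a symbol, were not above background on any sham array. For such a probe the fold is given as at least the TBI mean over a sham mean in which each array's value is raised to its lowest signal that was above background, and the fitted difference is given as a difference only. The TBI arrays lay above all 4 sham arrays for each of the 20 probes, a pattern seen in either direction for 5.49% of all tested probes, and above all 4 naive arrays for 18 of them.

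Folr1, the folate receptor that carries folate across the choroid plexus, had the largest difference of the called ventricular genes. Its levels were 2.16, 0.97, 1.70 and 1.69 on the TBI arrays, -2.93, -2.83, -2.43 and -2.38 on the sham arrays and -2.58, -3.52, -3.89 and -1.96 on the naive arrays. All 4 TBI arrays were above background and none of the 8 others was, so the fold over sham was at least 6.5 (difference 4.27, SE 0.38, adjusted p 0.00264). Against naive cortex the fold was at least 7.96 (adjusted p 0.00118).

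Calml4, a calmodulin-like protein of epithelial microvilli, was above background on all 12 arrays and so gave a measured fold. It read 2.44, 2.83, 2.09 and 2.95 after TBI, 0.74, 1.11, 0.92 and 0.94 after sham surgery and 0.47, -0.17, -0.16 and 0.72 in naive cortex. The groups did not overlap, and TBI cortex was 3.14-fold above sham (difference 1.65, SE 0.23, adjusted p 0.0297). Mfrp, a membrane protein related to the frizzled receptors, read 0.70, -0.43, -0.78 and -0.84 after TBI against -2.75, -3.04, -2.55 and -2.06 after sham surgery. It was above background on the TBI arrays alone, at least 1.66-fold over sham (difference 2.26, SE 0.36), with an adjusted p of 0.05 as rounded, just inside the threshold.

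Mlf1, which is expressed in cells with motile cilia, was the single called member of the ependymal list. Its levels were 1.73, 2.48, 2.15 and 1.49 on the TBI arrays, -2.87, -2.14, -1.33 and -0.34 on the sham arrays and -1.86, -1.39, -1.91 and -2.53 on the naive arrays, and it was above background on the TBI arrays only. The fold over sham was at least 7.5 (difference 3.63, SE 0.46, adjusted p 0.0169). A second Mlf1 probe differed by 2.14 in the same direction and missed the threshold (adjusted p 0.0655).

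For 3 of the 4 called ventricular genes the 250 bases before the gene's start are shown, with motif matches in capitals. They come from RefSeq (rat build GRCr8), all on the plus strand. The motifs searched on both strands were TAATCC, a core bound by OTX factors of choroid plexus epithelium, GTAAACA, a core bound by forkhead factors such as FOXJ1 of ciliated cells, and GTTGCC, the start of the X-box bound by RFX factors of ciliated cells. The windows are chr2:153958341-153958590 for Mlf1, chr8:72218636-72218885 for Calml4 and chr8:53342284-53342533 for Mfrp.
Mlf1: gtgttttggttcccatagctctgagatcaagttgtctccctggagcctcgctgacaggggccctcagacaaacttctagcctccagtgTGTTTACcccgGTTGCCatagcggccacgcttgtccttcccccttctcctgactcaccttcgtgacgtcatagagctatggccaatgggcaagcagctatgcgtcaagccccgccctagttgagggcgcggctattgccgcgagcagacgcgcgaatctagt
Calml4: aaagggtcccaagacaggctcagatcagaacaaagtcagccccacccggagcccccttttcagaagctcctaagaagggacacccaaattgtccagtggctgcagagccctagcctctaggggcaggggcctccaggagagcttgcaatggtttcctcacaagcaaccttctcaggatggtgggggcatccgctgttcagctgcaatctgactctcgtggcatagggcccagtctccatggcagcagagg
Mfrp: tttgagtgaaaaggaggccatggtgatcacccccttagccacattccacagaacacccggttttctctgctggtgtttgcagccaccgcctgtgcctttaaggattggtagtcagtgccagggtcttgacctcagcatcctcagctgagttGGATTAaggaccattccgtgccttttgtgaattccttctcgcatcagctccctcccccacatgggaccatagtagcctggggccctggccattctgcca
In Mlf1 the capitals mark a GTAAACA match read on the opposite strand, 162 bases before the start, and a GTTGCC match on the same strand, 151 bases before it. The Mfrp window holds a TAATCC match on the opposite strand, 99 bases before the start, and none of the 3 motifs was found in the Calml4 window. Of 27457 RefSeq promoters of the same length, 3.25% held GTAAACA, 9.9% GTTGCC and 6.33% TAATCC, and a match is a description of letters only.

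Beyond these called genes, the choroid plexus list as a whole stood higher after TBI. Of its 41 genes 37 had a probe and 24 were tested, of which 21 were higher in TBI than in sham cortex, 10 passed the thresholds of the study higher and none lower. Of all 11412 tested named genes 6425 (56.3%) were higher, and 3.08% passed those thresholds higher and 0.508% lower, which is the background for the counts of each list. Its median difference was 0.54, beside 0.028 over all tested named genes, and it was 0.69 against naive cortex. The median was 0.20 over the 16 members that were above background on all 8 arrays, of which 3 passed, 0.20 without TBI array 2 and 0.88 without TBI array 1. The tested members had to be bright in 1 group, which for several was the TBI group alone.

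Ttr, transthyretin, the carrier of thyroid hormone in cerebrospinal fluid and the defining transcript of choroid plexus, had the largest difference of the list and was not called. It read 9.70, 10.15, 7.29 and 6.81 after TBI, 2.44, 0.10, 6.02 and 4.28 after sham surgery and 4.44, 1.69, 1.77 and 4.58 in naive cortex. The difference was 5.28 with an SE of 1.23 (adjusted p 0.171), and the sham arrays themselves spread from 0.10 to 6.02. Sostdc1, a secreted antagonist of bone morphogenetic proteins, read 3.51, 3.10, 1.13 and 0.69 after TBI against -2.92, -3.10, -0.45 and -1.86 after sham surgery, a difference of 4.19 (adjusted p 0.0841). It was called against naive cortex, at least 11.1-fold higher (adjusted p 0.0434).

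Krt18, a keratin of simple epithelia, was 1.66 higher (adjusted p 0.166), with TBI levels of 1.31, 3.15, 1.43 and 0.83 and sham levels between -0.17 and 0.27. Its second probe differed by 2.66 (adjusted p 0.0696). Slc16a8, a lactate transporter, was 1.11 higher (adjusted p 0.141), Krt8, the keratin partner of Krt18, 0.73 higher (adjusted p 0.476), and the metalloreductase Steap1 0.63 higher (adjusted p 0.34). Pla2g5, a secreted phospholipase, and Kcne2, a potassium channel subunit, were high on TBI array 2 alone, at 4.36 and 5.86, where the other 3 TBI arrays lay between -1.16 and -0.42 and between 2.55 and 2.93. Their adjusted p was 0.454 and 0.617. Other members differed little, among them the water channel Aqp1 (0.45), the potassium channel Kcnj13 (0.17), Enpp2 (0.20), Igf2 (0.19) and Igfbp2 (-0.24), with adjusted p between 0.766 and 0.938.

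The summed level of the 37 choroid plexus genes, each relative to the array's median signal, was 1233, 2151, 777.5 and 1053 on the TBI arrays, 524.5, 662.9, 621.7 and 490 on the sham arrays and 733, 443.5, 422.7 and 519.9 on the naive arrays. All 4 TBI arrays exceeded the sham and naive arrays. The sum is of unlogged signals, and Ttr, which was not called, made up most of it on TBI arrays 1 and 2. The separation by sum therefore rests largely on this gene. The mean log2 level of the list weighs all genes alike, including those below background. It was 0.89 to 2.29 on the TBI, 0.38 to 0.53 on the sham and -0.04 to 0.53 on the naive arrays. Between 27 and 34 of the 37 genes were above background on the TBI arrays, against 16 to 23 on the sham and 16 to 24 on the naive arrays. Of the defining markers not tested, Otx2 had a mean level of 1.35 after TBI and -1.25 after sham surgery and Kl levels of -1.50 and -2.37, both looked up after values were seen. Naive arrays 1 to 3 of 3 months had sums above all 4 TBI arrays, at 5937, 6460 and 5541. Sham array 1 of 3 months, at 2040, and sham array 1 of 12 months, at 1696, lay below TBI array 2 and above the other TBI arrays. On the 4 naive arrays of 12 months that shared the TBI slide the sum was 361.9 to 458.4. How much ventricular tissue a piece of cortex carried was not measured, and its part in the differences was not tested. In bulk tissue a gain in cells of a type and a gain in RNA per cell cannot be told apart.

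**Figure D2:**
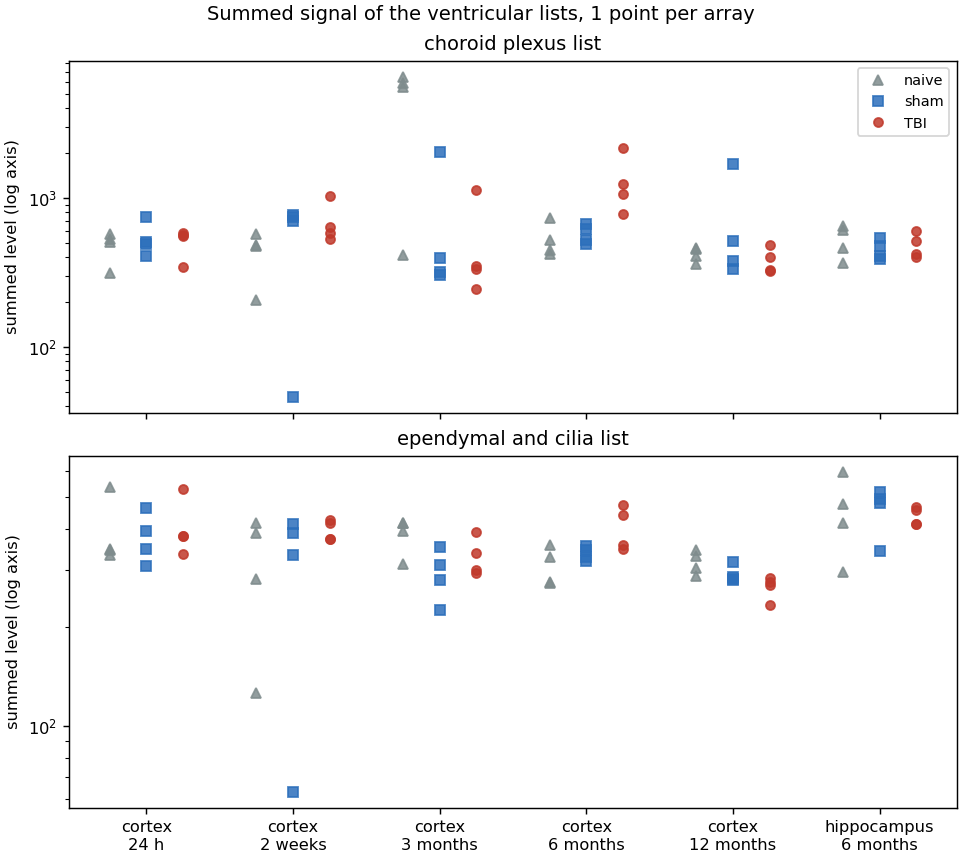
Summed level of the choroid plexus genes and of the ependymal and ciliary genes (y axis, log scale, relative to the array's median signal), with 1 point per array, for TBI, sham and naive cortex at each interval and for the hippocampus at 6 months. The choroid plexus sums of the 4 TBI cortex arrays at 6 months sit between 777.5 and 2151, above the sham arrays at 490 to 662.9, and 3 naive arrays of 3 months lie higher still, at 5541 to 6460.

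The ependymal list went the same way. Of its 85 genes 50 had a probe and 31 were tested, of which 29 were higher, 12 passed the thresholds of the study higher and none lower, with a median difference of 0.45 against sham and 0.40 against naive cortex. Of the 31 tested genes 7 were not above background on all sham arrays and so were tested through the TBI group. Over the 24 that were above background on all 8 arrays, 22 were higher, 7 passed and the median was 0.35. Between 33 and 43 of the 50 genes were above background on the TBI arrays, against 25 to 29 on the sham arrays. Cfap126, a cilia and flagella associated protein, read 3.24, 0.75, 3.40 and 2.57 after TBI against -1.43, -1.28, -0.41 and 1.00, a difference of 3.02 (adjusted p 0.121), and it was called against naive cortex (difference 3.48, adjusted p 0.0444). Dynlrb2, a dynein light chain, read 3.69, 1.59, 4.18 and 3.42 against 1.21, 1.49, 1.51 and 2.01, a difference of 1.67 (adjusted p 0.226). Foxj1, the transcription factor that drives motile cilia, and the axonemal dynein Dnah1, both picked after their values were seen, were 1.63 and 2.24 higher (adjusted p 0.296 and 0.315).

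By the mean level of the list, TBI array 2 was the highest of the TBI arrays for the choroid plexus genes and the lowest for the ciliary genes, and array 3 the reverse. Single genes did not follow this order, since Folr1 was lowest and Mlf1 highest on array 2, and by summed level the ciliary genes were highest on array 4, at 471.3 against 440.2 on array 3. On array 2, 34 of 37 choroid plexus genes and 33 of 50 ciliary genes were above background, and on array 3 the counts were 27 and 43. The mean level of the ciliary list was 1.07, -0.12, 1.34 and 0.89 on the TBI arrays and between -0.16 and 0.24 on the sham arrays, so array 2 lay within the sham range. Naive arrays 1 to 3 of 3 months had mean ciliary levels of 1.02 to 1.20, as high as the TBI arrays.

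Outside the ventricular lists 330 named genes passed the thresholds of the study higher and 58 lower, of 11357 tested, and their median difference was 0.027. By the probe with the highest signal of each gene, 11 named genes were called in all (0.0964%), and 7 of them lay outside the ventricular lists. Daw1, an assembly factor of ciliary dynein that was on neither ventricular list, read -0.69, -0.50, -0.29 and -0.61 after TBI, -2.84, -2.89, -3.50 and -2.20 after sham surgery and -2.41, -2.56, -2.94 and -2.58 in naive cortex. It was above background on the TBI arrays only, at least 1.46-fold over sham (difference 2.33, SE 0.23, adjusted p 0.00265). Ribc1, a protein of the ciliary microtubules, was above background on all 12 arrays. Its levels were 2.51, 2.37, 2.56 and 2.70 after TBI, 1.83, 1.75, 1.82 and 2.08 after sham surgery and 1.83 to 1.92 in naive cortex, a 1.58-fold difference (adjusted p 0.0435).

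Prc1, which bundles the microtubules of the spindle midzone during cell division, was the called gene of the proliferation list. It read 0.99, 1.47, 1.17 and 0.86 after TBI, -0.46, -0.14, -0.26 and -0.53 after sham surgery and -0.56, -0.60, -0.29 and -0.31 in naive cortex. TBI cortex was 2.77-fold above sham (difference 1.47, SE 0.14, adjusted p 0.00265), and a second probe differed by 1.66 (adjusted p 0.0749). Of the 26 tested genes of that list 23 were higher, 6 passed the thresholds of the study higher and none lower, and for 7 every TBI array lay above every sham array, against 3.86% of all named genes. Its median difference was 0.24. Over the 17 genes above background on all 8 arrays, 15 were higher and 1 passed, with a median of 0.23. Pttg1, securin, a regulator of sister chromatid separation, read 0.78, 0.78, 1.4 and 0.97 against 0.28, 0.11, 0.32 and 0.35 (difference 0.72, adjusted p 0.121). Mcm3, part of the replicative helicase, and Ccna2, cyclin A2, were 0.69 and 0.75 higher with adjusted p of 0.266 and 0.276.

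Another set of called genes had sham levels below the naive levels. Rgs22, a regulator of G protein signaling, read 1.38, 0.84, 1.51 and 0.69 after TBI, -0.36, -1.44, -1.67 and -2.27 after sham surgery and -0.12, 0.53, -0.17 and -0.44 in naive cortex. Its difference was 2.55 from sham (adjusted p 0.0297) and 1.16 from naive cortex (adjusted p 0.229). Amn, amnionless, the membrane partner of cubilin in vitamin B12 uptake, read 0.24, 0.47, -0.17 and 0.09 after TBI, -1.45, -2.10, -0.88 and -2.06 after sham surgery and -0.91, -0.42, -0.50 and 0.01 in naive cortex, a difference of 1.78 from sham (adjusted p 0.0464) and 0.61 from naive cortex (adjusted p 0.407). Aff1, a subunit of an elongation complex for RNA polymerase, read -0.03, -0.03, 0.01 and 0.01 against -0.96, -0.87, -0.94 and -1.0 (difference 0.93, adjusted p 0.0491), and its naive arrays ranged from -0.77 to 0.03. These 3 genes were called against sham and not against naive cortex. Sham was not tested against naive cortex for them, because neither group was above background on all 4 arrays.

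Ppp1r36, a regulatory subunit of protein phosphatase 1, read 0.66, 1.09, 0.76 and 1.18 after TBI, -0.33, -0.72, -0.49 and 0.01 after sham surgery and -0.47 to -0.11 in naive cortex, 2.47-fold above sham (adjusted p 0.0184). For Cldn19, a claudin of tight junctions, 1 of 3 probes was called, at 1.38, 1.07, 1.20 and 1.63 against 0.17, 0.17, 0.48 and 0.38 (2.02-fold, adjusted p 0.0416). The other Cldn19 probes differed by 0.68 and 0.40 in the same direction (adjusted p 0.243 and 0.449). The called Hdac1l probe read -1.15, -1.20, -1.16 and -0.60 against -2.78, -3.00, -3.38 and -2.25 (at least 1.03-fold, adjusted p 0.0184). Its naive arrays read -2.50 to -1.74, with a mean above that of sham and no array above background. It was not called against naive cortex (difference 1.05, adjusted p 0.111). The brightest probe of Hdac1l differed from sham by 0.21 (adjusted p 0.625). The 2 Hdac1l probes therefore disagreed. Among the 7 probes without a symbol the largest difference was 3.56 at A_42_P804822, at least 4.12-fold (adjusted p 0.00512).

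**Figure D3:**
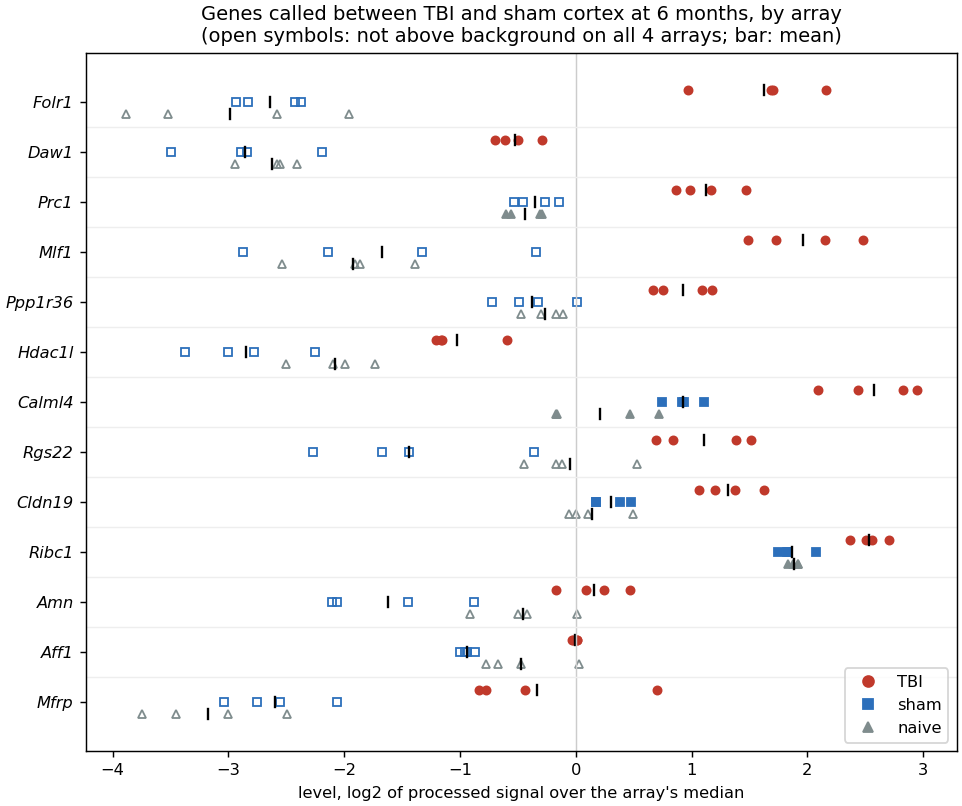
Level of each of the 13 called probes with a gene symbol (x axis, log2 of the signal over the array's median) on each array, with TBI as red circles, sham as blue squares and naive as grey triangles, the bar at the group mean, and open symbols where a group was not above background on all 4 arrays. Every red circle lies to the right of every blue square in its row, and for Rgs22, Amn and Aff1 the grey triangles lie between or beside the red circles.

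Acute-phase genes outside the ventricular lists stood higher after TBI, and none was called. Serpina3n, a serine protease inhibitor made by reactive astrocytes, read -0.78, 3.63, 1.14 and 4.92 after TBI and -2.41, -3.12, -3.52 and -2.08 after sham surgery, where no array was above background. The fold was at least 9.85, with an adjusted p of 0.115. A2m, alpha-2-macroglobulin, a protease inhibitor of the rat acute phase, read 4.25, 6.29, 4.53 and 6.48 after TBI, 1.55, 1.77, 2.99 and 3.05 after sham surgery and 1.85, 2.18, 1.61 and 2.03 in naive cortex, 8.25-fold above sham (difference 3.05, SE 0.51, adjusted p 0.0678). It was called against naive cortex (difference 3.47, adjusted p 0.0255), and its second probe differed from sham by 3.11 (adjusted p 0.0761). Ptx3, a long pentraxin, read -0.44, 0.00, -0.62 and 1.26 against -1.51, -2.04, -2.18 and -1.32, at least 2.18-fold (adjusted p 0.135). These 3 were among genes chosen with all 4 TBI arrays above all sham arrays, so that this pattern was fixed by the choice. It was seen for 3.86% of all named genes. With ventricular genes left out, 15 of 19 tested acute-phase genes were higher, 8 passed the thresholds of the study higher and none lower, and the median difference was 0.60.

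Most genes of reactive astrocytes and microglia were higher, and none was called. The background is the 56.3% of named genes that were higher and the 3.08% that passed the thresholds of the study higher. In the reactive astrocyte list 31 of 32 tested genes were higher, 9 passed the thresholds of the study and the median difference was 0.42, or 6 of 28 and 0.38 over the genes above background on all 8 arrays. Gfap, the intermediate filament of astrocytes, read 6.96, 4.37, 6.69 and 8.16 after TBI, 3.99, 5.41, 6.26 and 5.70 after sham surgery and 4.24 to 4.56 in naive cortex. It overlapped between TBI and sham (difference 1.21, adjusted p 0.593), since TBI array 2 was among the lowest. Of the genes of mature astrocytes at rest 9 of 19 were higher and none passed, with a median of -0.03.

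In the microglia and macrophage list all 34 tested genes were higher, 7 passed the thresholds of the study, and the median difference was 0.35 against sham and 0.22 against naive cortex. The list of genes of disease-associated microglia, the state described in degenerating brain, had 23 of 25 genes higher, 11 past those thresholds and a median of 0.54, or 7 of 21 and 0.43 over the genes above background on all 8 arrays. Lgals3, galectin-3, read 2.99, 6.04, 4.93 and 5.54 against 2.80, 3.52, 3.09 and 2.98 (difference 1.78, adjusted p 0.266). Gpnmb, a glycoprotein of phagocytes, read 3.82, 3.24, 4.52 and 5.73 against 2.85, 2.71, 3.23 and 3.45 (difference 1.27, adjusted p 0.336). Both overlapped through 1 TBI array. The tetraspanin Cd9 and the protease Ctsz did not overlap, at differences of 0.61 and 0.66 (adjusted p 0.271 and 0.319). Naive array 4 was itself high in immune genes, so that the summed microglial level was 939.2 to 1576 on the TBI, 843.6 to 1035 on the sham and 963.3 to 1443 on the naive arrays.

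Complement was measured through 27 tested genes, of which 26 were higher than in sham cortex, 4 passed the thresholds of the study (C3, Itgb2, C6 and Serping1, the last named after its values were seen) and none was called. The median difference was 0.33 against sham but 0.10 against naive cortex. C3, the central component, read 4.79, 5.04, 5.72 and 6.64 after TBI and 4.17, 3.98, 3.69 and 4.14 after sham surgery, while the naive arrays read 3.71, 4.09, 4.47 and 7.63. TBI and sham did not overlap (difference 1.56, SE 0.71, adjusted p 0.504). The difference from naive cortex was 0.58 (adjusted p 0.811). C2 read 2.05, 2.93, 3.17 and 3.96 against 2.69, 2.66, 2.67 and 1.95 and overlapped (difference 0.54, adjusted p 0.738). Itgb2, the beta-2 integrin chain of leukocytes and of complement receptors, read 2.15, 4.06, 2.80 and 3.08 against 1.4, 1.80, 1.4 and 2.07 (difference 1.36, adjusted p 0.276). C6, a component of the membrane attack complex, was 0.61 above sham (adjusted p 0.124) and was called against naive cortex (0.74, adjusted p 0.0434).

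The cytokines Il1b and Il6 were too dim to be tested. Il1b was above background on 3 TBI arrays, no sham array and 1 naive array, with levels of -1.64 to -0.57 after TBI and -2.20 to -0.68 after sham surgery. Il6 was above background on TBI array 1 alone, at -0.80. Of the chemokines and their receptors 16 of 21 tested were higher and 4 passed the thresholds of the study. Of the 13 above background on all 8 arrays 8 were higher and none passed, with a median of 0.17. The monocyte attractant Ccl2 read -0.39, 0.93, -0.03 and 1.82 against -1.07, -0.33, -0.74 and -1.31 (difference 1.45, adjusted p 0.317), and the eosinophil attractant Ccl11 was 1.44 higher (adjusted p 0.29). Socs3, the feedback inhibitor of cytokine signaling, and Lcn2, lipocalin 2, were 0.77 and 1.12 higher and overlapped with sham (adjusted p 0.316 and 0.437). Smaller immune lists were higher too without a called gene, with medians of 0.35 over 7 class II antigen presentation genes, 0.32 over 30 interferon response genes and 0.49 over 11 T and NK cell genes. Against naive cortex these medians were 0.09, 0.21 and 0.12. Of the 11 T and NK cell genes 5 were not above background on all sham arrays and so were tested through the TBI group. Over the 6 that were above background on all 8 arrays the median against sham was 0.315, and none passed the thresholds of the study.

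Among the largest differences outside any list, several rested on TBI array 2. The zinc importer Slc39a4 read 1.42, 6.52, 2.29 and 2.69 against 0.62, 1.17, 0.87 and 0.36 (difference 2.47, adjusted p 0.34). The muscle form of carnitine palmitoyltransferase, Cpt1b, read 0.15, 3.72, 0.47 and 0.18 (adjusted p 0.466), and the calpain Capn3 -1.39, 1.49, -0.94 and -0.47, at least 1.67-fold (adjusted p 0.346). Slc26a4, an anion exchanger, was at least 1.81-fold higher (adjusted p 0.26). From the list of iron and oxidative stress genes, Mgst1, a microsomal glutathione transferase, was even across the TBI arrays. It read 4.14, 4.33, 4.30 and 4.92 against 3.27, 3.07, 3.29 and 3.51 (difference 1.14, adjusted p 0.124), and it was called against naive cortex (adjusted p 0.0399). The survival factor Bcl2a1, from the list of neurotrophin and survival genes, was above background on the TBI arrays only, at least 1.29-fold (adjusted p 0.0894).

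Most synaptic and channel genes were lower by small amounts, and none was called. Of 44 tested synaptic genes only 4 were higher in TBI than in sham cortex, with a median difference of -0.20, and 2 passed the thresholds of the study lower, Homer2 and Rims1. Of 38 voltage-gated channel genes 5 were higher, with a median of -0.17, and 3 passed lower, Kcnq3, Scn4b and Cacna1e. Rims1 was named after its values were seen. Other neuronal lists did not all go this way. Of 22 interneuron genes 7 were higher, with a median of -0.11, of 16 genes of hippocampal identity 8 were higher, with a median of -0.01, and of 23 genes of cortical layer identity 17 were higher, with a median of 0.13, and 1 passed the thresholds of the study higher. Of these 23 genes, 6 were not above background on all sham arrays and so were tested through the TBI group. Over the 17 above background on all 8 arrays, 11 were higher and none passed, with a median of 0.06. The summed synaptic level overlapped, at 5981 to 7931 on the TBI, 7426 to 8970 on the sham and 6441 to 8703 on the naive arrays. Cplx2, complexin 2, which clamps vesicle fusion, read 8.87, 8.85, 8.86 and 8.55 against 9.13, 9.15, 8.94 and 9.29 (difference -0.35, adjusted p 0.336). Kcnq3, a subunit of the M-current channel, read 5.23, 4.91, 5.52 and 5.12 against 6.39, 5.70, 5.62 and 6.13 (difference -0.77, adjusted p 0.389). Crh, corticotropin-releasing hormone, read 3.46, 3.10, 3.18 and 3.19 against 3.83, 3.89, 3.55 and 3.97 (difference -0.58, SE 0.12, adjusted p 0.135). Gad2, which makes GABA, was 0.61 lower than in sham cortex (adjusted p 0.331) and 1.09 lower than in naive cortex (adjusted p 0.0503).

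Outside these lists, genes were named in the lower direction from those that passed the thresholds of the study with all 4 TBI arrays below all sham arrays, so that this pattern was fixed by the choice. Fstl4, a follistatin-like secreted protein, read 6.30, 6.15, 6.35 and 5.96 after TBI against 7.04, 6.64, 6.91 and 6.71 after sham surgery and 6.68 to 6.94 in naive cortex (difference -0.63, SE 0.12, adjusted p 0.11). Arid3c, an AT-rich DNA-binding protein, read -0.18, -0.06, -0.05 and 0.08 against 1.28, 0.48, 0.48 and 0.75 (difference -0.80, adjusted p 0.122). Pla2g2d, a secreted phospholipase, and Selenov, a selenoprotein, were 1.26 and 1.02 lower (adjusted p 0.34 and 0.23), and Cyp26a1, which degrades retinoic acid, was 0.69 lower (adjusted p 0.205). Ric1, part of a Golgi exchange factor for Rab6, read -0.48, -0.18, -0.37 and 0.01 against 0.34, 0.47, 0.32 and 0.38 (difference -0.63, adjusted p 0.16), and it was called against naive cortex (difference -0.91, adjusted p 0.0295). That pattern was seen for 1.09% of all named genes.

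Markers of the tissue itself were present on all arrays. The neuronal Snap25, the vesicular glutamate transporter Slc17a7 and the myelin protein Mbp were above background throughout and differed by -0.20, -0.01 and 0.10 (adjusted p between 0.636 and 0.995). So did Prox1 and Drd1, markers of dentate gyrus and striatum, at 0.03 and 0.25. Oligodendrocyte genes were higher in 36 of 37 tested, with a median of 0.20, endothelial and mural genes in 7 of 31, with a median of -0.13, and neither list had a called gene. Blood and meningeal genes set single TBI arrays apart. The hemoglobin transcript Hbb-bs read 10.85 on TBI array 3 and 7.88 to 8.41 on the others, and the meningeal genes Ogn and Slc22a6 read 2.75 and 2.39 on TBI array 1 and at least 5.14 on the others.

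**Figure D4:**
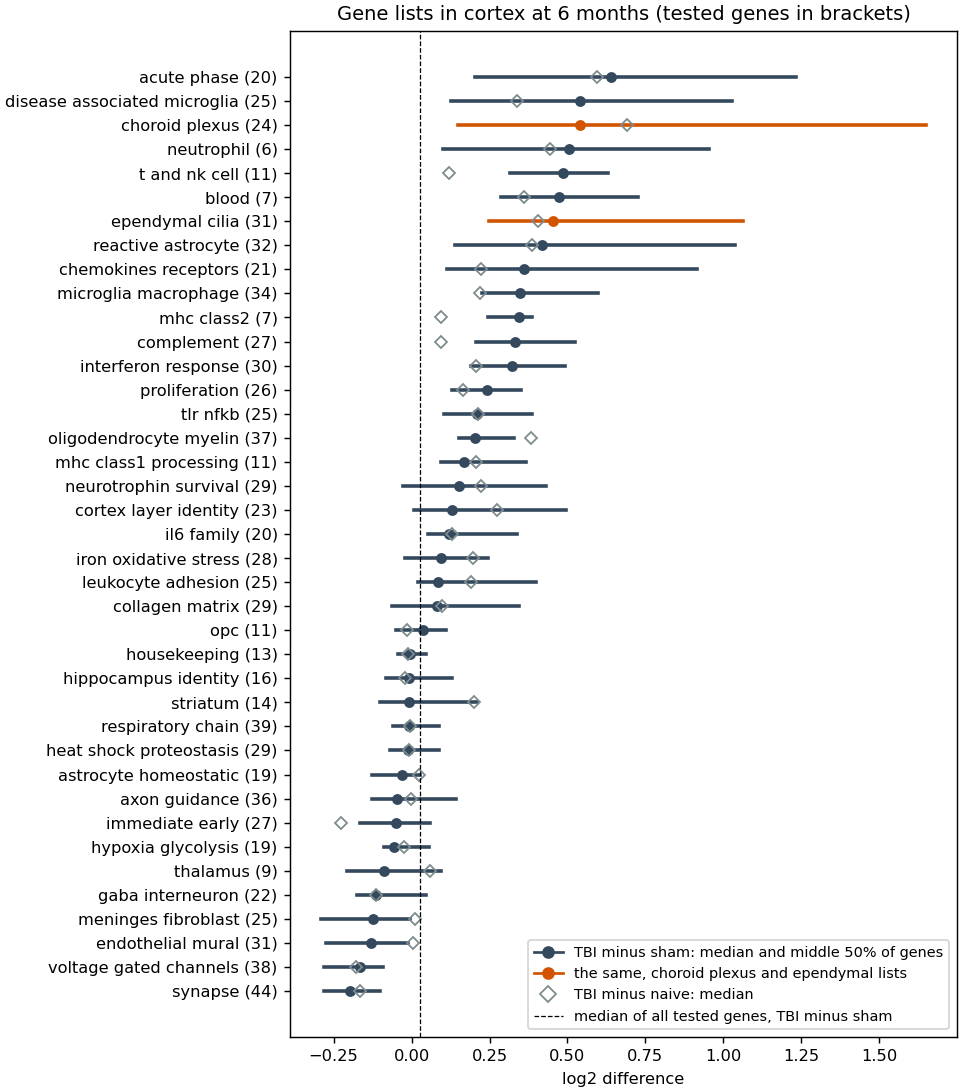
Median log2 difference (point, x axis) with the middle 50% of members (bar) for each gene list with at least 6 tested genes, TBI minus sham cortex at 6 months, and diamonds for the median of TBI minus naive. The dashed line is the median of all tested named genes, 0.028. Choroid plexus, ependymal, acute-phase, disease-associated microglia and reactive astrocyte genes lie to the right of it, and synaptic and channel genes to the left.

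Against naive cortex of 6 months 63 of 24934 probes were called (0.253%), 34 higher and 29 lower after TBI, and this comparison shares its TBI arrays with that against sham. Of the 20 probes called against sham, 14 were called higher against naive cortex too. Counted by the brightest probe, 19 named genes were higher (0.166%) and 3 lower (0.0262%), the latter being Ric1, Vegfa and Xkr6, which was named after its values were seen. Vegfa, the vascular growth factor, read 5.95, 5.65, 5.96 and 5.74 after TBI, 6.22, 6.16, 6.11 and 6.25 after sham surgery and 6.24, 6.39, 6.54 and 6.47 in naive cortex. It fell by 0.58 against naive cortex (adjusted p 0.0459), and its difference from sham was -0.36 (adjusted p 0.264). Ntf3, neurotrophin-3, and the tetraspanin Cd82, both named after their values were seen, rose by 1.01 and 0.78 against naive cortex (adjusted p 0.0295 for each). No probe was called between sham and naive cortex by limma, of 22983 tested, and 1554 had an unadjusted p under 0.05 (6.76%).

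Against the 4 naive cortex arrays of 12 months on the same slide, which differ in age as well as injury, 545 of 24863 probes were called (2.19%), 476 of them higher and 69 lower after TBI. Of the 20 probes called against sham 19 were higher here too, Aff1 being the exception at -0.36 (adjusted p 0.744), and 7 were called, among them Daw1 (2.07, adjusted p 0.0164), Rgs22 (2.27, adjusted p 0.0348) and the Hdac1l probe (1.56, adjusted p 0.0116). Folr1 and Mlf1 differed by 4.0 and 2.41 and missed the threshold (adjusted p 0.0718 and 0.0517), as did Prc1 (0.91, adjusted p 0.136), Calml4 (2.01, adjusted p 0.169) and Mfrp (2.32, adjusted p 0.238). This comparison was fitted together with the cortex arrays of 3 and 12 months, and that against sham with those of 6 months only. Numbers of calls and p of the 2 fits are therefore not alike. The second A2m probe differed by 3.13 (SE 0.57, adjusted p 0.00795) here and by 3.11 (SE 0.54, adjusted p 0.0761) from sham. Some acute-phase and microglial genes that missed the threshold against sham passed it in this larger fit. Serpina3n rose by 4.38 (adjusted p 0.00921), A2m by 3.40 (adjusted p 0.00234), Lgals3 by 2.49 (adjusted p 0.00234), Ptx3 by 2.52 (adjusted p 0.0164) and Ccl2 by 1.48 (adjusted p 0.0451). Fstl4 and Arid3c fell by 0.67 and 0.89 (adjusted p 0.0354 and 0.0416). C3, Gfap, Gpnmb and Ttr were not called there (adjusted p 0.455, 0.337, 0.194 and 0.167).

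In the hippocampus, 6 months after injury, the same contrast gave other values. There too the TBI arrays lay on another slide than the sham and naive arrays. Folr1 was above background on all hippocampus arrays, at mean levels of 1.27 in naive, 1.23 in sham and 1.41 in TBI rats, a difference of 0.18 between TBI and sham. The difference between the cortical and the hippocampal effect was 4.09 (SE 0.54, adjusted p 0.00271), and Folr1 was the 1 probe of 25006 called in that test (0.004%, with 438 probes or 1.75% at an unadjusted p under 0.05). Mlf1 and Daw1 differed by 0.08 and -0.14 in the hippocampus and Prc1 by -0.13, but the test of the difference between regions did not pass for them (adjusted p 0.122, 0.331 and 0.39), and Daw1 was above background on only 3 sham and 3 TBI arrays of the hippocampus. The summed choroid plexus level was 403.3 to 602.1 in TBI hippocampus, within the 363.3 to 644.8 of the naive arrays, and the list's median difference there was 0.05. The unnamed probe A_42_P804822 was called in the hippocampus as well, 1.96 higher (adjusted p 0.00494).

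At the other intervals after injury several of the called probes were too dim to be tested, so their differences there are not measured folds and give no order. Among others, this holds for Folr1 at 3 and 12 months, for Mlf1 at 2 weeks and 12 months and for Daw1 at all 4 other intervals. There neither TBI nor sham was above background on all 4 arrays. The difference of Folr1 between TBI and sham was 1.31 (24 hours), 2.03 (2 weeks), 0.42 (3 months), 4.27 (6 months) and -0.92 (12 months). For Mlf1 the values were 0.86, 0.96, 1.07, 3.63 and -1.12, for Daw1 0.76, 0.83, 1.42, 2.33 and -0.51, and for Prc1, which was tested at every interval, 1.23, 1.09, 0.77, 1.47 and -0.30. Naive cortex of 3 months held Folr1 at a mean level of 3.23 with an SD of 3.44, so uninjured arrays also reached the level seen after TBI at 6 months. TBI and sham arrays shared a slide at 3 and 12 months but not at 6 months. Slide and interval therefore cannot be told apart in the tests that follow. Tested directly, the effect at 6 months differed from that at 3 months for 10 of 24900 probes (0.0402%). For all 10 the TBI mean was above sham at 6 months and below sham at 3 months. Among them were Amn (1.78 at 6 months and -0.79 at 3 months, adjusted p 0.0492) and the Hdac1l probe (1.82 and -0.73, adjusted p 0.0177). Both were too dim to be tested at 3 months, so their 3-month values are not measured folds. The Hdac1l probe was not above background on any sham array at 6 months either. The effect differed from that at 12 months for none of 25665 probes by limma, with 1649 (6.43%) at an unadjusted p under 0.05. Ttr differed by 0.90, 0.37, 0.17, 5.28 and -2.84 over the same intervals. A2m differed by 1.35, 3.33, 1.19, 3.05 and -0.12 and C3 by 0.98, 4.09, 0.55, 1.56 and -0.04, with their highest value at 2 weeks.

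**Figure D5:**
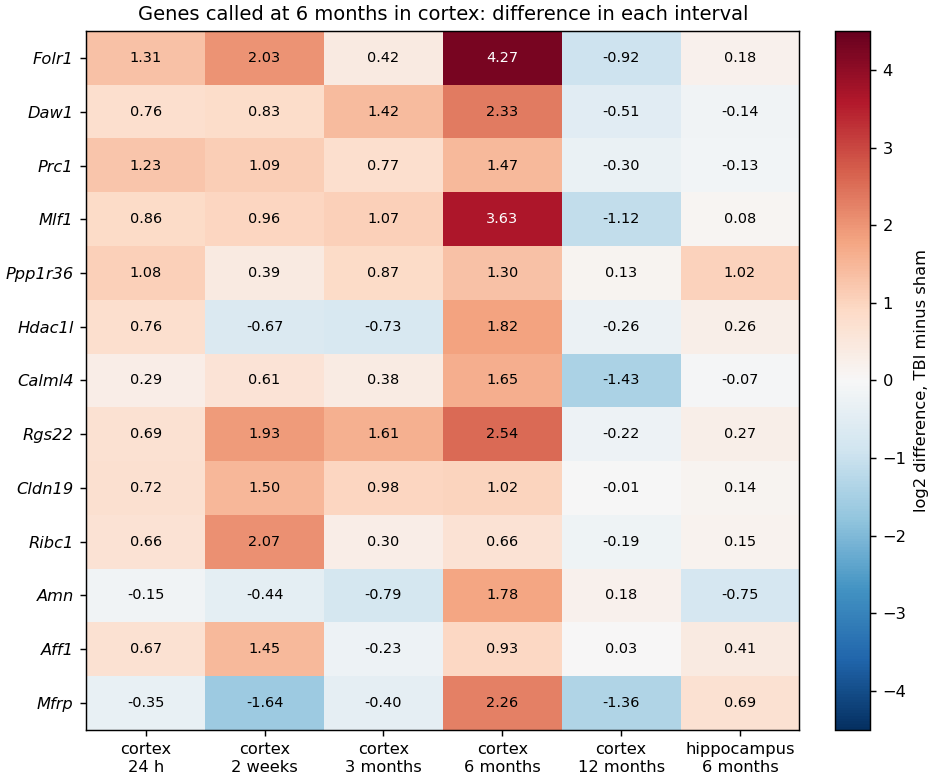
TBI minus sham log2 difference (colour) of the 13 called probes with a symbol (rows) in cortex from 24 hours to 12 months after injury and in the hippocampus of 6 months (columns). Folr1 reads 4.27 in the 6-month cortex column, 0.42 at 3 months, -0.92 at 12 months and 0.18 in the hippocampus. Outside the 6-month cortex column some cells rest on probes not above background on all 4 arrays of either group, among them Folr1 at 3 and 12 months and Daw1 throughout.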

How the data were processed

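RNA from 1 rat per array was amplified and hybridized to a 1-color Agilent rat array, and per the file headers the scans were extracted with Feature Extraction 11.5.1.1. The deposited intensities are spot signals that this software had background-subtracted and detrended within each array, beside the median spot and local background intensities and the deposited flags for spots above background or out of line (coded 0 or 1). The authors' own value table holds the same intensities divided by 1 constant per array, whose definition is not given in the sources used here. The study's methods scaled arrays to their median, which was followed here.

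Spots of a probe were averaged without outlier-flagged spots, log2 was taken, and each array's median over all probes other than controls was subtracted. A probe was tested where it was well above background on every array of at least 1 group compared, and no probe was saturated. Groups of 4 arrays were compared with limma 3.58.1 in R 4.3.3 (lmFit, contrasts.fit and eBayes, Benjamini-Hochberg adjustment over all tested probes), with TBI, sham and naive cortex of 6 months in 1 fit and with the hippocampus or the cortex of 3 and 12 months added for the tests of differences between effects. The comparison with naive cortex of 12 months on the same slide also used the fit with the cortex of 3 and 12 months. The script was tested on simulated data. The number of arrays limits the precision, and arrays within a group correlated at 0.9749 to 0.9916. Genes were read from the probe with the highest mean signal in TBI and sham. Named were every gene called, up to 12 genes with the largest difference in each direction outside the ventricular lists that passed the thresholds of the study without overlap, up to 4 genes of the smallest p in each of 40 lists (12 for choroid plexus), 4 genes the study's text names (C2, C3, Il1b and Il6) and 8 tissue markers, apart from 2 genes that are not reported here. The comparison, the members and the lists were chosen with earlier results of these data known.

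The study took cortex and hippocampus from each rat, and deviations from the group means correlated between same-numbered arrays of the 2 tissues at 0.189 to 0.407 in TBI and sham rats, so the numbers were taken to pair the tissues. The reported test between regions did not use this pairing. It entered only as an alternative fit, in which 1 probe was called. Alternatives covered scaling, background correction, the filter on dim probes, the arrays fitted, array weights, the replicate number and each array left out. Gene symbols were looked up in RefSeq by the accession that the array files give for each probe. A probe whose accession gave no symbol or several was left without a symbol. Columns of comparisons made by the authors were not used.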

Additional observations from a re-analysis of the deposited data

Results flagged for a closer look

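In 12 of 166 groups of 4 arrays the highest or lowest array stood apart from the other 3 by more than Dixon's critical value, and chance gives about 1 in 20. Among named genes, TBI array 2 stood apart for Cpt1b at 3.72 (others 0.15 to 0.47), Pla2g5 at 4.36 (others -1.16 to -0.42) and Kcne2 at 5.86 (others 2.55 to 2.93), TBI array 1 for C10h16orf89 at 1.73 (others 0.99 to 1.09), and sham array 4 for Cpt1b at -2.27 (others -0.33 to 0.03). For the mean level of whole lists, TBI array 3 stood apart for blood genes at 7.18 (others 4.56 to 4.95), TBI array 2 for resting astrocyte genes at 6.49 (others 6.80 to 6.86) and TBI array 4 for thalamic genes at 2.04 (others 1.99 to 2.00). Sham array 4 stood apart for ciliary genes at 0.24 (others -0.16 to -0.11), synaptic genes at 5.71 (others 5.38 to 5.41) and proliferation genes at 0.91 (others 0.73 to 0.74), and sham array 2 for microglial genes at 2.92 (others 2.63 to 2.66).

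The effect of TBI differed between cortex and hippocampus for Folr1, by 4.09 (limma, adjusted p 0.00271). In cortex it differed between 6 and 3 months for 10 probes, each with TBI above sham at 6 months (by 0.22 to 1.82) and below sham at 3 months (-1.30 to -0.48). For 8 of them, all but Amn and Hdac1l, the 3-month value was the larger in size. The 6-month minus 3-month value was 2.57 for Amn (adjusted p 0.0492), 2.56 for Hdac1l (adjusted p 0.0177), 2.10 for Cuedc1 (adjusted p 0.0492), 1.97 for B3galnt2 (adjusted p 0.0258), 1.15 for the centrin Cetn4 (adjusted p 0.0452), 1.13 for the respiratory chain gene Ndufb4 (adjusted p 0.0158), 1.12 for the ribosomal gene Rps25 (adjusted p 0.0258), 1.09 for Timmdc1 (adjusted p 0.034), 0.89 for Senp8 (adjusted p 0.0258) and 0.70 for the unnamed probe A_44_P1098133 (adjusted p 0.0177). Apart from Amn and Hdac1l, these genes were not called between TBI and sham at 6 months. At 3 months neither TBI nor sham was above background on all 4 arrays for Amn, Hdac1l, Cuedc1 and B3galnt2. Their 3-month values are therefore not measured folds. TBI and sham shared a slide at 3 months and not at 6 months, so slide and interval cannot be told apart here.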

How the results depend on the processing

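All 20 called probes were higher after TBI under every alternative in which they were tested, 5 of them where a probe had to be above background on all 8 arrays. Counted by the brightest probe of each gene, Folr1, Daw1 and Prc1 were called in all 19 alternatives tested, Mlf1 in 13 and the others in 1 to 12. For Hdac1l and Cldn19 the brightest probe was not the called probe. The alternatives include the gene's probe of smallest p in the main fit, which for called genes repeats the reported call. The number of probes called between TBI and sham, 20 as reported, was 11 with the 75th percentile, 22 with quantile normalization (3 of them lower), 20 with the authors' value table (3 lower), 369 with normexp (4 lower), 6 with no filter (2 lower), 0 with a filter on all arrays of both groups, 7 with only the 2 groups fitted, 1169 with array weights (91 lower) and 10 with trended, robust eBayes, and 4 to 144 with 1 array left out (0 to 5 lower). With ventricular genes left out (16) these numbers were 9, 18, 17, 362, 5, 0, 5, 1142 and 7, and 3 to 126 with 1 array left out. The number of choroid plexus genes called (3) was 1 with the 75th percentile, 1 with no filter, 0 with the filter on all arrays, 5 with array weights and 1 to 4 with 1 array left out, and the list's median difference stayed between 0.20 and 0.55, or 0.20 and 0.88 with 1 array left out.

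At the thresholds of the study the 829 higher probes became 550 with normexp, 385 with the filter on all arrays and 1497 with array weights, and 709 to 1121 with 1 array left out. The 151 lower probes became 33 with normexp, 8970 with no filter and 280 with array weights, and 112 to 263 with 1 array left out. Normexp moved the median difference of all probes to 0.10. Against naive cortex the 63 called probes became 103 with quantile normalization, 15 with no filter, 34 with only the 2 groups fitted and 1042 with array weights, and 17 to 203 with 1 array left out. The 1 probe called between regions remained 1 in number under the other settings, with 1 to 15 when 1 array was left out. The 10 probes called between 6 and 3 months became 5 with quantile normalization, 4 with outlier spots kept and 0 with only the 4 groups fitted, and 1 to 152 with 1 array left out, and the 0 between 6 and 12 months became 0 to 6. The cause of these changes was not tested.

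TBI and sham arrays that share a replicate number come from different rats, and their deviations correlated at -0.081, 0.045, -0.003 and -0.209, none being closest to its own number. With the replicate number as a block, 8 probes were called, 7 with ventricular genes left out, 1 choroid plexus gene, and 17 probes against naive cortex, and the block moved no other count of calls by over 1.5 times.

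Differences near 0 changed sign. Prox1 (0.03) was -0.01 with the 75th percentile (-0.015) and the authors' table (-0.010), Pax5 (0.03) -0.012, -0.001 with quantile normalization and -0.007 with that table, Pgk1 (-0.07) 0.066 with normexp and 0.005 with array weights, Slc17a7 (-0.01) 0.157 with normexp and 0.001 with outlier spots kept, Calb2 (-0.11) 0.031 with normexp and Igf1 (0.43) -0.321 by its probe of smallest p. With 1 array left out the ranges were -0.084 to 0.188 for Prox1, -0.17 to 0.19 for Pax5, -0.035 to 0.281 for Mbp, -0.183 to 0.152 for Slc17a7, -0.934 to 0.362 for Ogn, -1.036 to 0.198 for Slc22a6, -0.196 to 0.793 for Hbb-bs, -0.249 to 0.879 for Alas2, -0.247 to 1.403 for Slc4a1 and -0.849 to 0.041 for Slc17a6. The lowest or highest value came without TBI array 1 for Ogn and Slc22a6 and without TBI array 3 for the blood genes.

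Normexp was run on median spot signals with the offset of 50, as mean signals were not used here. Outlier spots kept, the fits without the other groups for the tests between regions and intervals, and the comparison on 1 slide were chosen after seeing the data. Slide as a block was not run for TBI against sham, because slide and injury cannot be told apart. Signal over background limits 10 of the 20 called probes, which have only a bound in sham cortex.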
